A study of Homo sapiens with 4 samples.

Results

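The human genome keeps many of its zinc finger genes in dense clusters on chromosome 19. The transcripts described here are those of the ZNF-numbered genes of that chromosome, measured in THP1 cells after transfection with a miR-511 mimic. Members were all non-control probes of the array whose gene name in the files is ZNF followed by a number and whose listed position is on chromosome 19, which gave 242 of 27193 gene names and 339 of 34127 probes. The lowest listed start was 2836674 and the highest end 58992591 in the hg19 coordinates of the files. Of the members, 178 lay on the plus strand and 161 on the minus strand, and 157 genes had 1 probe, 75 had 2 and 10 had 3 or 4.

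THP1 is a human monoblastic leukemia cell line that carries the fusion gene MLL-AF9, which all 4 samples share. In each of 2 independent experiments, one culture received 30 nM miR-511 mimic and one received 30 nM negative control #1 mimic, and RNA was taken on day 2 for hybridization to single-color Agilent whole genome arrays. The comparison asks which transcripts differ when miR-511 is raised. There are thus 2 arrays per treatment, from 1 cell line, and p-values measure only the spread between these arrays. RNA came from whole cultures, so fewer cells carrying a transcript and less of it per cell cannot be told apart.

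KRAB zinc finger proteins, the most numerous class encoded in these clusters, bind DNA through a row of C2H2 fingers. Their KRAB domain recruits TRIM28 (KAP1), a scaffold for the histone methyltransferase SETDB1 and for heterochromatin proteins, and the best known targets are transposable elements. The genes arose largely by tandem duplication, so neighbors resemble each other in sequence and their finger repeats are alike. A miRNA acts through its seed, which pairs with matching letters in target transcripts. The mature miR-511-5p, as listed by RefSeq, is shown with its seed (bases 2 to 8) in capitals.
hsa-miR-511-5p: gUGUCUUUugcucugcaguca

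Because finger repeats are shared, the letters of a probe decide how well it tells one family member from another. The letters TGTGGNAAA, which lie in the finger repeat and were sought in the orientation of the probe, stood in 37 of 339 member probes (10.9%), in 25 of 389 ZNF probes of other chromosomes (6.43%) and in 165 of all 34127 probes (0.483%). In the opposite orientation they stood in 2 members and in 57 of all probes. Of these probes, 4 are printed 5′ to 3′ with the match in capitals, followed by the non-member probe most similar to that of ZNF738. ZNF738 and ZNF878 are shown because they passed the unadjusted threshold, and ZNF254 because its probe is among the brightest. ZNF419 is shown because another of its probes, A_23_P164638, which lacks these letters, is among the largest falls. The printed ZNF419 probe itself had a log2 difference (miR-511 mimic minus control) of only -0.06.
ZNF738 (A_32_P68148, hg19 chr19:21567123-21567182, plus strand): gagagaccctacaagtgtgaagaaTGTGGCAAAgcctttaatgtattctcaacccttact
ZNF878 (A_33_P3403254, hg19 chr19:12154801-12154860, minus strand): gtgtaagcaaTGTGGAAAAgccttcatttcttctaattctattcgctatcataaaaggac
ZNF254 (A_32_P144908, hg19 chr19:24309844-24309903, plus strand): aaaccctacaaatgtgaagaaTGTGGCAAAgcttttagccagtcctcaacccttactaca
ZNF419 (A_33_P3316394, hg19 chr19:58005026-58005085, plus strand): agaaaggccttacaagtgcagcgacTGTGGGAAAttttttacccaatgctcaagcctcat
LOC441666 (A_33_P3273266, on chromosome 10 in the files): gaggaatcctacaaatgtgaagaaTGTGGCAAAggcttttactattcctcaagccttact

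Counted as the fewest single-base changes, insertions and deletions between whole probes, the smallest distance from any member to a probe of another gene name was 10 of 60 bases. Within 15 changes lay 23 members, and the other 316 had no such neighbor on the array. Probes were compared only with other probes and end to end. Whether the 316 resemble transcripts of other genes was thus not examined. The pairs within the ZNF101 to ZNF254 cluster included ZNF208 with ZNF728 and ZNF254 with ZNF675, both at 11 changes. Hybridization of one member's RNA to another member's probe was not tested.

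Most members were detected in THP1 cells. A probe was counted as detected on an array where the scanner software marked it as well above background. On all 4 arrays this held for 293 of 339 members (86.4%), on 1 to 3 arrays for 17 and on no array for 29 (8.55%). The share on all 4 arrays was 84.6% for the 389 ZNF probes of other chromosomes, 71.8% for the 1668 other probes of chromosome 19 and 63.4% for all probes, which is a description of the array and was not tested. By gene, 215 of 242 (88.8%) had a probe detected on all 4 arrays, 11 reached 1 to 3 arrays and 16 were detected on none.

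The 16 genes with no detected probe were ZNF560 in the ZNF557 to ZNF846 cluster, ZNF90, ZNF708, ZNF43, ZNF208 and ZNF681 in the ZNF101 to ZNF254 cluster, ZNF599 in the small cluster that holds ZNF302, ZNF829 and ZNF781 in the ZNF565 to ZNF573 cluster, ZNF229 in the ZNF575 to ZNF296 cluster, ZNF534, ZNF702P, ZNF415 and ZNF677 in the ZNF175 to ZNF331 cluster, and ZNF154 and ZNF135 in the ZNF628 to ZNF446 cluster. ZNF702P is listed by RefSeq as a transcribed pseudogene. The ZNF681 probe had a normalized log2 intensity of 1.81 and 1.63 on the miR-511 arrays and of 1.51 and 1.66 on the control arrays, in experiments 1 and 2. The ZNF208 probe had 2.74 and 2.20 with miR-511 and 2.07 and 2.81 with control. Values this low lie under the detection floor, so no fold was given for these genes. Of the 16, only ZNF90, ZNF599, ZNF677 and ZNF154 had more than 1 probe. The ZNF708 probe has 16.7% GC and the ZNF90 probe A_33_P3474538 23.3%, against a median of 40% over the members. A probe that reads poorly and an absent transcript were not told apart.

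Detection of the 17 intermediate members moved with one array. In experiment 1, 13 of the 17 were detected on the control array and not on the miR-511 array, and none the other way round. In experiment 2 the counts were 5 and 4. Over all probes the miR-511 array of experiment 1 also had the lowest detection of the 4 (64.8% of probes) and the control array of experiment 1 the highest (69.3%). Of the 17, 9 met the filter for testing described below, 8 of them by detection on both control arrays and ZNF285 (A_33_P3269688) by detection on both miR-511 arrays, so the filter itself favored a direction. Their log2FC (miR-511 mimic minus control) ran from -0.56 for ZNF382 (A_23_P16354) to 0.20 for ZNF431 (A_24_P177568), and 7 of the 9 were below 0.

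Position along the chromosome was described by runs of member probes with less than 1000000 bases between the starts of neighbors. These runs formed 16 clusters, of which 7 held 10 or more probes and 307 of the 339 members in all. The share of probes detected on all 4 arrays was lowest among the 7 in the ZNF101 to ZNF254 cluster (hg19 chr19:19790730-24312487), where 35 of 46 probes (76.1%) were detected throughout and 8 on no array. In the ZNF565 to ZNF573 cluster (chr19:36673459-38229314) it was 31 of 39 (79.5%). In the 5 other large clusters it lay between 88.5% and 94.7%, the highest being that of ZNF557 to ZNF846 with 18 of 19.

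**Figure D1:**
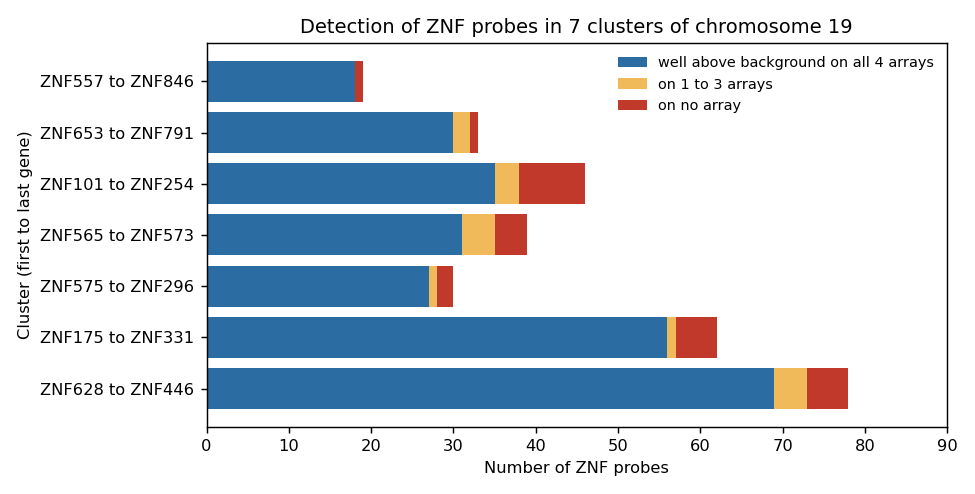
Number of ZNF probes (horizontal axis) in each of the 7 clusters with 10 or more probes (vertical axis, named by their outermost genes in chromosome order), divided into probes well above background on all 4 arrays, on 1 to 3 and on none. The ZNF101 to ZNF254 cluster had 8 of 46 probes detected on no array, and the ZNF175 to ZNF331 cluster 5 of 62.

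The clusters also differed in promoter sequence. RefSeq promoters (GRCh38.p14, 250 bases before to 50 after the start of the gene) were matched by symbol for 207 of the 242 genes. Counts of the letters CG had a median of 21 in the 185 matched genes detected on all 4 arrays, of 16.5 in the 14 matched genes detected on none, and of 14 over all 35116 promoters of the table. In the ZNF101 to ZNF254 cluster the 19 matched genes detected throughout had a median of 10 CG (8 to 18) and the 5 undetected genes a median of 9 (9 to 12), so that CG count did not separate detected from undetected genes there. The 28 matched and detected genes of the ZNF175 to ZNF331 cluster had a median of 25 CG (14 to 30), and the 3 undetected ones with a promoter, ZNF415, ZNF534 and ZNF677, had 17, 20 and 34.

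The upstream 250 bases of ZNF208 and ZNF681, undetected genes of the ZNF101 to ZNF254 cluster, and of ZNF677 are shown as examples, chosen after their values were seen, with every CG in capitals. ZNF208 and ZNF681 differed by 53 changes over the 250 bases, against 134 between ZNF208 and ZNF677, and the windows of ZNF90, ZNF43 and ZNF708, undetected in the same cluster, differed from that of ZNF208 by 42, 56 and 126.
ZNF208 (GRCh38.p14 chr19:22010944-22011193, minus strand): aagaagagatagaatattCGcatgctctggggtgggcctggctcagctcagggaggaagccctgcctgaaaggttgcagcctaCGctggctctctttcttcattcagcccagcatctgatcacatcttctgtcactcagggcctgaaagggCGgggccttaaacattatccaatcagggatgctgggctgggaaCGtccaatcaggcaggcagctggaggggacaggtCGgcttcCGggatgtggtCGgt
ZNF681 (GRCh38.p14 chr19:23758892-23759141, minus strand): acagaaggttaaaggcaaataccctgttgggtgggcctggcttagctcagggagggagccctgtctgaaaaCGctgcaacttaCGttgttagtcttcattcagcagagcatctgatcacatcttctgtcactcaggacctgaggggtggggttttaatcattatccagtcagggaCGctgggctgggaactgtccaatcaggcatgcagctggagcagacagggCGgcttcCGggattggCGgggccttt
ZNF677 (GRCh38.p14 chr19:53254824-53255073, minus strand): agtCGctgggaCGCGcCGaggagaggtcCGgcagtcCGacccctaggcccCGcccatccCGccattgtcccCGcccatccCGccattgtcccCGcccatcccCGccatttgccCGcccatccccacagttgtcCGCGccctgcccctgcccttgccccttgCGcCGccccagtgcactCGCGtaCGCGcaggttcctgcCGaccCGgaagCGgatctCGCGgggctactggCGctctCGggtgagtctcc

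The miR-511 mimic left most of these transcripts close to their control level. Testing required a probe to be detected on both miR-511 arrays or on both control arrays, which 302 of 339 members met. Over these 302 the median log2FC was -0.017, with the middle 50% between -0.09 and 0.04, and over all 22638 tested probes the median was 0.010. The log2FC was below 0 in 176 of the 302 (58.3%), against 46.3% of all tested probes. By experiment, 57.3% of the members were lower in experiment 1, against 42.2% of all probes, and 51.7% in experiment 2, against 50.2%. Only 10 members (3.31%) differed by more than 0.5 in log2FC, against 3.64% of all probes.

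The experiments did not rank the members alike. The direction was the same in both experiments for 149 of the 302 members (49.3%), with 88 lower and 61 higher in both, against 51.0% of all tested probes. Across the members the log2 differences of experiments 1 and 2 had a Pearson correlation of 0.061 (n = 302, across probes that share 4 arrays). Across the same members, log2FC had a correlation of 0.0093 with the GC content of the probe and of 0.0037 with its mean level.

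Of the 302 tested members, 5 (1.66%) passed an unadjusted p below 0.05 by limma, 4 lower and 1 higher with miR-511, which is below the 2.20% of all tested probes that passed. The corresponding shares of all tested probes were 0.932% lower and 1.27% higher. After Benjamini-Hochberg adjustment over all tested probes none of the members passed, nor any probe of the array (0%), and the adjusted p by limma was 1.00 for each of the 5. An exact permutation test of any single probe, with 2 arrays against 2, cannot go below p = 0.333. With the experiment as a block, 6 members passed and 894 of all probes, against 498 without it. Both miR-511 arrays lay below both control arrays for 46 members (15.2%), against 10.1% of all tested probes, and above them for 25 members (8.28%), against 15.6%.

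ZNF738 showed the largest difference of all members, at one of its probes. At A_32_P68148, the finger probe printed above, normalized log2 intensity was 11.16 and 10.93 on the control arrays of experiments 1 and 2 and 9.33 and 10.13 on the miR-511 arrays. Both miR-511 arrays lay below both control arrays. The probe fell by 1.84 in experiment 1 and by 0.80 in experiment 2. The log2FC was -1.32 ± 0.30 (SE, n = 2 arrays per treatment), 2.49-fold lower, past the unadjusted threshold of limma with an adjusted p of 1.00. Without the control array of experiment 1 the log2FC was -1.20 and no longer passed.

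The other ZNF738 probe, A_33_P3231750 (hg19 chr19:21562040-21562099, plus strand), did not show this difference. It read 9.90 and 10.23 with control and 9.87 and 10.12 with miR-511, so the treatments overlapped, and its log2FC was -0.07 ± 0.17 (SE), not past the threshold. Both probes carry the same transcript accession in the files, which is of the RefSeq type for non-coding RNA. RefSeq (GRCh38.p14) no longer lists that transcript and now lists ZNF738 as protein coding, under other transcripts. Whether the measured transcript is translated was not examined. Which transcript ends or exons each probe reads was not analysed here.

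The probe most similar to the ZNF738 finger probe is that of LOC441666, 10 changes away and assigned to chromosome 10 (hg19 chr10:42833106-42833150, of which the files list 45 bases). It read 8.88 and 8.79 with control and 8.51 and 8.56 with miR-511, with both miR-511 arrays below both control arrays. Its log2FC was -0.30 ± 0.09 (SE), past the unadjusted threshold with an adjusted p of 1.00 by limma. This probe was chosen by sequence alone, and whether RNA of either gene reaches the other's probe was not tested.

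ZNF302, a KRAB zinc finger gene, had 1 probe, A_23_P209032 (hg19 chr19:35176592-35176651, plus strand). It read 8.61 and 8.85 with control and 7.68 and 8.33 with miR-511, lower in both experiments and without overlap. The log2FC was -0.72 ± 0.26 (SE). The call was kept without the miR-511 array of experiment 2 and lost without any other array, with log2FC between -1.05 and -0.39.

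ZNF878 and ZNF880 had smaller differences. The ZNF878 probe printed above read 5.81 and 5.92 with control and 5.47 and 5.60 with miR-511, and its log2FC was -0.33 ± 0.11 (SE). ZNF880 has 3 tested probes, and the one that passed, A_24_P926783 (hg19 chr19:52888833-52888892), read 6.22 and 6.15 with control and 5.90 and 5.96 with miR-511, with a log2FC of -0.26 ± 0.09 (SE). The treatments did not overlap at either probe. The other ZNF880 probes had a log2FC of -0.25 (A_33_P3273324) and -0.003 (A_24_P323967), neither past the threshold. Neither gene passed in any of the 4 fits that left out 1 array, where log2FC lay between -0.40 and -0.26 for ZNF878 and between -0.29 and -0.22 for ZNF880. With the experiment as a block ZNF880 did not pass either.

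ZNF418, a KRAB zinc finger gene of the ZNF628 to ZNF446 cluster, was the only member past the threshold that was higher with miR-511. Its probe A_23_P27424 (hg19 chr19:58433676-58433735, minus strand) read 5.83 and 5.65 with control and 6.32 and 6.24 with miR-511, and the treatments did not overlap. The difference was 0.48 in experiment 1 and 0.59 in experiment 2, and the log2FC was 0.54 ± 0.11 (SE). It passed in each of the 4 fits without 1 array, with log2FC between 0.44 and 0.63. After normexp background correction its log2FC was 0.26.

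**Figure D2:**
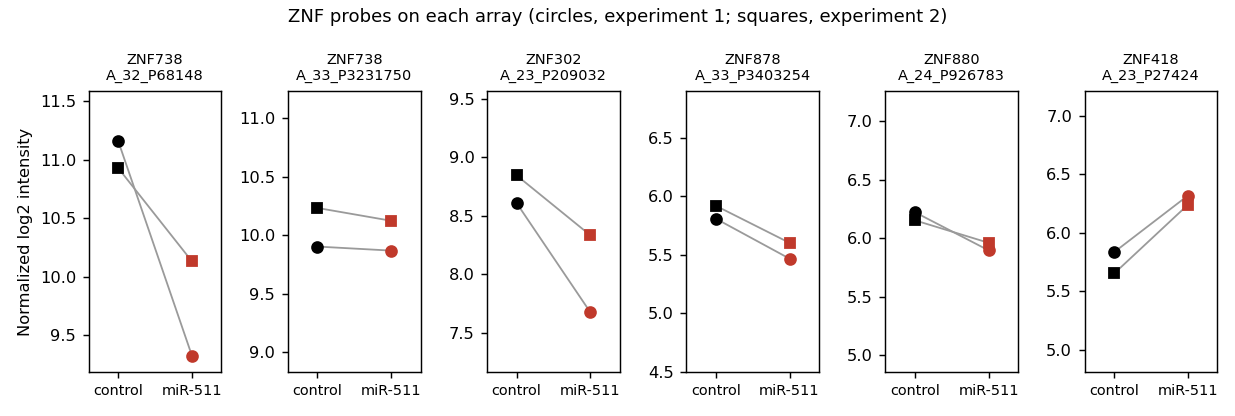
Normalized log2 intensity (vertical axis, with the same span in each panel) on the control and the miR-511 arrays for both probes of ZNF738 and for the other 4 probes past an unadjusted p below 0.05, with a line joining the arrays of one experiment (circles, experiment 1, and squares, experiment 2). ZNF738 fell by 1.84 and 0.80 at A_32_P68148 and by 0.03 and 0.11 at A_33_P3231750.

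The large falls among the members rested mostly on experiment 1. Of the 10 members with a log2FC beyond 0.5, 8 were lower and 2 higher. For all 8 the miR-511 array of experiment 1 held the lowest of the 4 values. Picking members by a low miR-511 mean favors a low miR-511 array. The same count over all tested probes was not made, so it is not given as a trait of the members. The difference was below -0.5 for 8 of these 8 in experiment 1 and for 2 of them, ZNF738 and ZNF302, in experiment 2. ZNF470 (A_33_P3338036), ZNF607 (A_23_P27810) and ZNF728 (A_24_P358868), which are named here after their values were seen, fell by 1.49, 1.24 and 1.12 in experiment 1 and differed by 0.10, 0.06 and 0.03 in experiment 2. The treatments overlapped at all 3 probes, and none passed the threshold. What sets the miR-511 array of experiment 1 apart was not tested.

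Without the miR-511 array of experiment 2, 18 members passed the unadjusted threshold (5.96%), 16 of them lower, and 6.09% of all probes passed. Without the miR-511 array of experiment 1, 3 members passed (0.993%, against 2.78% of all probes), and without the control array of experiment 1 it was 4, of which 1 was lower (1.32%, against 3.52%). ZNF418 was among the members called in all of these fits.

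**Figure D3:**
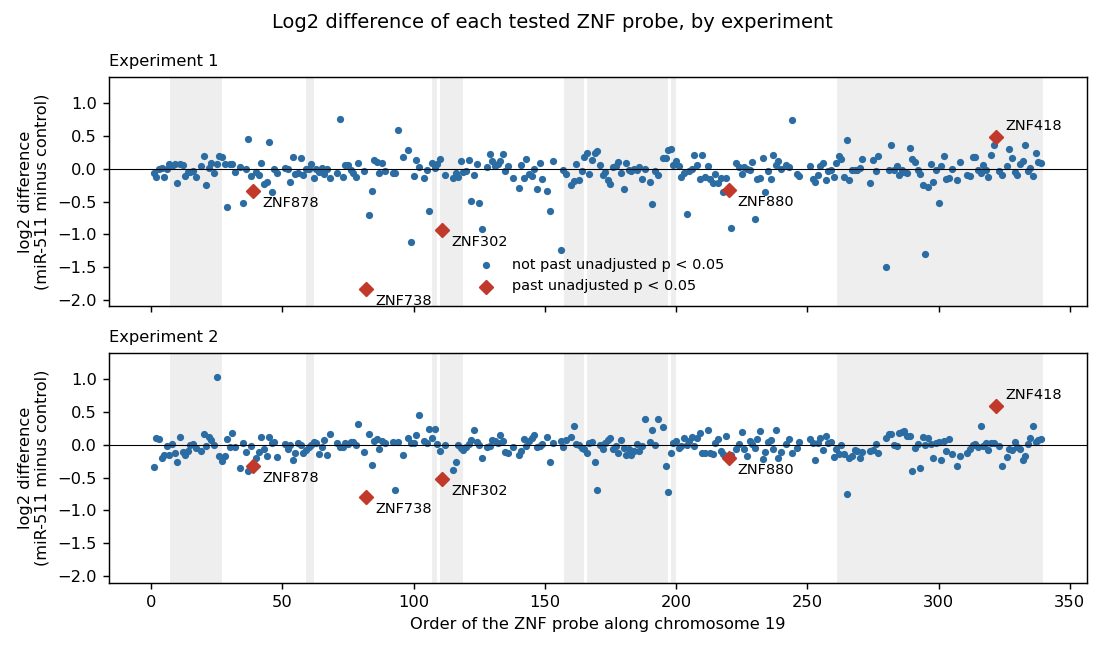
Log2 difference, miR-511 mimic minus control mimic (vertical axes), of the 302 tested ZNF probes in their order along chromosome 19 (horizontal axis), in experiment 1 (top) and experiment 2 (bottom), with every other cluster shaded and the 5 probes past an unadjusted p below 0.05 drawn as diamonds. Falls below -1 appear in experiment 1 only, and ZNF738 and ZNF302 were low in both.

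Among the members detected on all 4 arrays, 142 moved the same way in both experiments, 82 lower and 60 higher. After ZNF738 and ZNF302, the largest falls of these were those of ZNF419 (A_23_P164638), ZNF528 (A_23_P414713), ZNF793 (A_33_P3385750) and ZNF83 (A_33_P3256868), with a log2FC of -0.65, -0.52, -0.45 and -0.41. ZNF419 read 6.79 and 6.77 with control and 5.49 and 6.76 with miR-511, so that its fall came from experiment 1 alone. ZNF528 read 5.57 and 5.30 with control and 4.67 and 5.16 with miR-511. None of the 4 passed the unadjusted threshold, but with the experiment as a block ZNF793 did. After normexp background correction the log2FC was -0.27 for ZNF419, -0.11 for ZNF528 and -0.14 for ZNF793.

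Next to ZNF418 the largest rises among these same members, detected on all 4 arrays and higher in both experiments, were those of ZNF812 (A_32_P33434), ZNF676 (A_24_P205036), ZNF835 (A_33_P3247609), ZNF625 (A_23_P4850) and ZNF675 (A_23_P339687), with a log2FC of 0.56, 0.32, 0.27, 0.26 and 0.24. ZNF812 read 4.95 and 3.99 with control and 5.03 and 5.03 with miR-511, so its difference rested on the low control array of experiment 2. ZNF675 read 11.21 and 10.65 with control and 11.24 and 11.10 with miR-511, again with 1 low control value in experiment 2. None of these 5 passed the threshold, and ZNF625 and ZNF675 overlapped between treatments. ZNF625 read 3.32 and 3.76 with control and 3.73 and 3.88 with miR-511. ZNF835 read 3.39 and 3.73 with control and 3.75 and 3.90 with miR-511. Both lay close to the lowest values counted as detected, which were 2.98 to 3.44 across the arrays. The second ZNF625 probe, A_32_P182473, was far brighter, at 11.39 and 11.17 with control, and differed in the opposite direction, at -0.17. After normexp background correction the log2FC was 0.15 for ZNF812, 0.06 for ZNF676, 0.03 for ZNF835 and 0.02 for ZNF625.

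The brightest member probes on the control arrays changed little. ZNF865 (A_33_P3210160) read 18.37 and 18.47 with control and 18.20 and 18.28 with miR-511, a log2FC of -0.19 ± 0.10 (SE). It was -0.06 when arrays were scaled to their 75th percentile and -0.04 after normexp background correction. ZNF526 (A_33_P3225696) read 15.15 and 15.21 with control and 15.40 and 15.08 with miR-511, a log2FC of 0.06 ± 0.14. ZNF525 (A_32_P98348) had a log2FC of -0.22 ± 0.11 and ZNF254 (A_32_P144908) of 0.003 ± 0.12. None passed the unadjusted threshold, although ZNF865 (as quantile normalized) and ZNF525 were lower on each miR-511 array than on each control array. Other probes of these genes were far dimmer, and levels of different probes were not compared as transcript amounts. The ZNF865 probe A_33_P3412184 had a control mean of 6.56, against 18.42 for the bright one. It rose by 0.44 in experiment 1 and fell by 0.75 in experiment 2. The other ZNF525 probe had a control mean of 9.65, against 15.10, and a log2FC of -0.06. The 3 other ZNF254 probes had control means from 8.15 to 10.21, against 14.01, and log2FC from -0.20 to 0.09.

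Probes of the same gene were compared with each other, without a reference from probes of different genes. Of the 72 member genes with 2 or more tested probes, 43 had log2FC of one sign at all of them, and 29 did not. The probes of a gene differed by a median of 0.099. ZNF738, with 1.24, was the only gene whose probes differed by more than 1, followed by ZNF419 with 0.59 and ZNF625 with 0.43. In 70 of the 72 genes the spread was under 0.5.

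**Figure D4:**
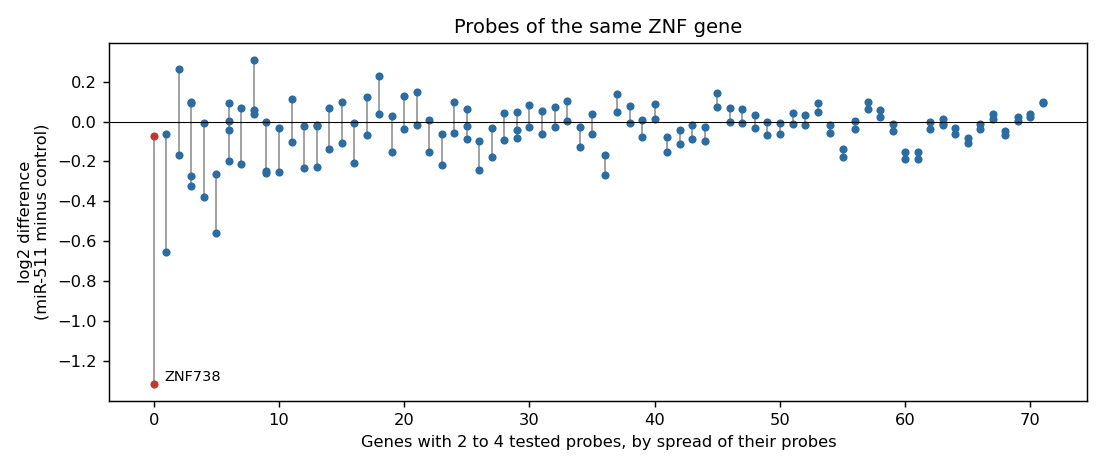
Log2FC, miR-511 mimic minus control mimic (vertical axis), of every tested probe of the 72 ZNF genes with 2 to 4 tested probes, ordered along the horizontal axis by the spread of their probes, with a line joining the lowest and highest probe of a gene. ZNF738 is drawn in red, with probes at -1.32 and -0.07.

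Repeated spots show the error within an array. The array prints 10 members 10 times each, and 9 of them were tested, among them ZNF146, ZNF426, ZNF565 and ZNF571. Their log2FC lay between -0.06 and 0.07, and the SD between the spots of a probe had a median of 0.086 on the log2 scale. All 5 members past the threshold were printed 1 time, so no spot error is known for them.

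By cluster, the median log2FC of the tested probes was between -0.056 and -0.003 in the 7 large clusters. The lowest was that of the ZNF653 to ZNF791 cluster (hg19 chr19:11596540-12740240), which holds ZNF878, with 22 of 30 tested probes lower, and in the ZNF575 to ZNF296 cluster (chr19:44040017-45575588) 21 of 28 were lower with a median of -0.030. In the ZNF628 to ZNF446 cluster, which holds ZNF418 and ZNF419, 36 of 70 were lower. The ZNF101 to ZNF254 cluster, which holds ZNF738, had 20 of 38 lower and a median of -0.007. The 5 probes past the threshold thus lay in 4 of the large clusters and, for ZNF302, in a smaller one of 8 probes.

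Members whose probes hold the finger letters were compared with the rest as a description, with no test of the difference. They were detected on all 4 arrays in 36 of 37 cases (97.3%), against 257 of 302 (85.1%) of the other members. The unadjusted threshold was passed by 2 of 36 tested finger probes, 3 of 266 others and 2.20% of all tested probes. Counts this small do not separate the groups. The log2FC was below 0 in 25 of the 36 (69.4%) and in 151 of the 266 (56.8%), with a median of -0.05 and -0.02. The letters AAAGACA, which pair with the miR-511-5p seed, stood in 3 of 339 member probes (0.885%) and in 0.970% of all probes. Of these, ZNF426 (A_23_P101351) had a log2FC of -0.02, ZNF439 (A_23_P434430) of -0.16, and the ZNF563 probe A_33_P3262485 was detected on no array. A probe is a short stretch of a transcript, so its letters do not list the miR-511 sites of a gene.

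The partners of KRAB zinc finger proteins in repression were followed at 50 tested probes. The list held 32 gene symbols, among them TRIM28 and its partners SETDB1 and ATF7IP, heterochromatin proteins and the NuRD complex. It also held DNA methyltransferases, sumoylation enzymes, members of the HUSH complex and further histone methyltransferases. Of the 32 symbols, 30 had a probe, and all 30 were tested. The symbols without a probe were FAM208A and TASOR, an older and a current name of the same HUSH gene. By limma 0 were lower and 0 higher at an unadjusted p below 0.05 and none passed after adjustment, where 2.20% of all tested probes passed unadjusted, so a count of 0 among 50 is near that share. The median log2FC was 0.015 with a range from -0.33 (CBX1 probe A_33_P3332006) to 0.16 (HDAC2 probe A_33_P3309924). This CBX1 probe differed by -0.66 in experiment 1 and by -0.005 in experiment 2. The other CBX1 probes had a log2FC of -0.006 and 0.07, and the other HDAC2 probe, which is brighter, 0.02. TRIM28 read 14.10 and 14.25 with control and 14.20 and 14.25 with miR-511, a log2FC of 0.05 ± 0.10 (SE). The 3 SETDB1 probes had a log2FC of 0.01, -0.04 and -0.09.

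The THP1 label was checked against markers. All 10 monocytic markers with a probe were detected on all 4 arrays, CD33, CD14, CSF1R and SPI1 among them, as were HOXA9 and HOXA10, while MEIS1 was detected on 2. MS4A1 (B cells), EPCAM and CDH1 (epithelial cells) were detected on none. However, 1 of 3 epithelial (KRT18), 2 of 3 T cell, 2 of 3 B cell, 2 of 2 erythroid and 3 of 3 endothelial markers with a probe were also well above background on all 4 arrays, so that this mark alone is a low bar. Between 232 and 301 spots per array were left out as outliers, none was saturated, and all arrays came from 1 slide.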

How the data were processed

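The authors hybridized THP1 RNA to single-color Agilent arrays and deposited 1 scanner file per array, whose processed intensity is background-subtracted and not normalized between arrays, and a table of log2 values, which ranked spots as the scanner intensity did (lowest Spearman correlation 1). The deposited log2 table was an alternative. The flags used (well above background, outliers) are other scanner columns. The labels give Feature Extraction 10.5.1.1 and the file headers 10.7.3.1. Depth does not apply to arrays, and 2 arrays per treatment limit the precision.

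The log2 of the processed intensity of 43118 non-control spots was taken without outlier spots, quantile normalized, and averaged per probe. A probe printed 10 times was well above background where over 50% of its spots were. limma 3.58.1 in R 4.3.3 compared the treatments (lmFit, eBayes, 4.14 total degrees of freedom, two-sided), with all p-values adjusted over 22638 tested probes. An exact permutation test of 2 against 2 cannot go below p = 0.333. As a check of the code, 22638 probes were simulated with independent noise and no deviation shared across an array. There, 90 of 100 probes changed by 1.5 on the log2 scale were recovered after adjustment. That share does not carry over to the real arrays, where the smallest adjusted p by limma was 0.790.

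The sample titles assign the arrays to experiments 1 and 2, and the paper states only that there were 2 independent experiments. The experiment numbers were taken to pair the arrays. Deviations of arrays with one number from their treatment means correlated at 0.271. The block was an alternative.

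Probes named were those of ZNF738, members past the threshold, the 6 largest rises and falls among members detected on all arrays and moving alike in both experiments, the 4 brightest on control arrays, genes whose probes differ by over 1, and TRIM28. The members, lists and tests were chosen with earlier results of these data known. By accession, 313 of 339 probes matched RefSeq (GRCh38.p14), 311 with the name in the files and 2 as ZNF542P. ZNF738 was not matched by accession and keeps the name in the files. Distances between probes came from edlib 1.3.9.post1. The listed interval was not 60 bases for 17 members.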

Additional observations from a re-analysis of the deposited data

How the results depend on the processing

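The call of 5 members (4 lower, 1 higher) became 3 with an intensity trend (2 lower), and 4 after normexp background correction (2 lower, 2 higher). It stayed at 5 with the plain t-test (1 lower, 4 higher), which shared 2 of the 5 and no longer called ZNF738 at a log2FC of -1.32. The t-test called 1 probe of the co-repressor list. Without a filter on dim probes 2 members were higher. With the experiment as a replicate block 6 members passed, 4 of them shared, ZNF793 was added among the named probes at -0.45 and ZNF880 was lost at -0.26. Over all probes the share past the threshold moved too, from 2.20% to 1.26% with the trend, 1.17% after normexp correction, 3.13% with the t-test, 3.02% without the filter and 3.95% with the block.

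ZNF418 passed under every alternative run, with a log2FC of 0.26 after normexp correction against 0.54. ZNF738 passed under all of them but the t-test and the fit without the control array of experiment 1. ZNF302 was lost after normexp correction, without the filter and with the t-test. ZNF878 was lost after normexp correction, where its log2FC was -0.08, with the intensity trend and with the t-test. ZNF880 was lost after scaling to the 75th percentile, after normexp correction, where its log2FC was -0.12, with the block and with the trend. ZNF525 (A_32_P98348) passed after normexp correction at -0.26.

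Near 0, ZNF254 (A_32_P144908) turned to -0.0020 after scaling to the 75th percentile and to -0.00056 in the deposited table, and ZNF880 (A_24_P323967) to 0.030 after normexp correction.

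Leaving out 1 array in turn gave 3 to 18 members past the threshold, 1 to 16 lower and 2 to 4 higher, 0 to 3 probes of the co-repressor list, and a median log2FC of the members from -0.018 to -0.0056. The 3 and the median of -0.0056 came without the miR-511 array of experiment 1, the 18 and 16 without that of experiment 2. ZNF738 (A_32_P68148) ranged from -1.72 to -0.91 and its other probe (A_33_P3231750) from -0.24 to 0.093. Signs turned for TRIM28 (-0.019 to 0.13), ZNF675 (-0.042 to 0.52), ZNF526 (-0.10 to 0.22), ZNF865 A_33_P3412184 (-0.53 to 0.22), ZNF525 A_33_P3273285 (-0.17 to 0.045), ZNF419 A_33_P3316394 (-0.17 to 0.043), ZNF880 A_24_P323967 (-0.22 to 0.21), and the ZNF254 probes A_33_P3252635 (-0.13 to 0.047), A_32_P144908 (-0.087 to 0.092) and A_33_P3252630 (-0.62 to 0.22). Calls were gained without the miR-511 array of experiment 2 for ZNF419, ZNF528, ZNF793, ZNF83, ZNF676 and ZNF254 (A_33_P3252630), without the control array of experiment 1 for ZNF675 and ZNF812, and without that of experiment 2 for ZNF625. The lone array of a treatment was then assumed to vary like the other 2.

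Counted by the scanner's test of signal against background, 315 members were detected on all 4 arrays, against 293. With a gap of 500000 bases, 8 clusters held 10 or more probes, against 7. The slide as a block was not run, since there was 1 slide. The causes of these changes were not tested, and probes near background carry the least information.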
